A study of Mus musculus with 13 samples.

Results

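Langerhans cells, the antigen-presenting cells of the epidermis, were examined in single-cell libraries of mouse abdominal epidermis. Cells were chosen by measured values: a cell had at least 20 UMIs (unique molecular identifiers, each standing for 1 captured RNA molecule) summed over the class II genes Cd74, H2-Aa, H2-Ab1 and H2-Eb1, and fewer than 2 UMIs summed over the T cell genes Cd3d, Cd3e and Cd3g. These values made the choice, so class II levels are given below as a description only. The rule found 615 cells among 36927 kept cells, which were barcodes with at least 200 genes detected and at most 10% mitochondrial UMIs. Of 37686 barcodes in the files, 759 were dropped, and the study's own total was 36912 cells.

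All 4 libraries came from the abdominal epidermis of C57BL/6 mice carrying Tbx3creERT2 and R26H2B EGFP, and all of these mice received tamoxifen. Tbx3creERT2 is a tamoxifen-inducible Cre recombinase under Tbx3, and R26H2B EGFP is a histone-linked green reporter that Cre switches on. The states were non-pregnant (NP), gestation day 16 (dpc16), day 6 post partum (dpp6) and day 40 post partum (dpp40). NP mice were given tamoxifen outside pregnancy, and the other 3 groups during it. Each state had 1 library, and neither the ages nor the number of mice per library is given in the sources used here. State, animal, library and dissociation therefore cannot be told apart, and no comparison below has a replicate check or a p-value. EGFP had 9 UMIs in all 615 chosen cells.

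Langerhans cells sit among the keratinocytes of the outer skin layer, where they sample antigen through dendrites. They arise from embryonic precursors and maintain themselves by local division, which depends on signals through the receptor Csf1r. Langerin, encoded by Cd207, is the lectin of their Birbeck granules. Class II molecules carry peptides to CD4 T cells: the invariant chain Cd74 fills the groove during assembly, the protease Ctss trims it, and H2-DM exchanges its remnant for peptide. A cell that matures raises Ccr7 and Fscn1, leaves the epidermis and travels to the lymph node.

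The promoter bases of class II genes and of Cd207 are shown because class II UMIs chose the cells whereas Cd207 was free of the rule. Each line is 130 bases directly before the gene's start, 5′ to 3′ on the gene's strand, from RefSeq in the GRCm38.p6 build. The capitals mark GATTGG, or CCAATC where it lies on the other strand, the Y box of class II promoters. H2-Aa lies at chr17:34287824-34287953 on the minus strand, H2-Eb1 at chr17:34305737-34305866 on the plus strand and Cd207 at chr6:83677858-83677987 on the minus strand.
H2-Aa: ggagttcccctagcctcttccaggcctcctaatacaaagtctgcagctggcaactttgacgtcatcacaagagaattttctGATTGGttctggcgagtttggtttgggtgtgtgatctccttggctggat
H2-Eb1: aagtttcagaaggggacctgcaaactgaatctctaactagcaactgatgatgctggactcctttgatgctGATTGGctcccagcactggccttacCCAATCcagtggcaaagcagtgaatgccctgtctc
Cd207: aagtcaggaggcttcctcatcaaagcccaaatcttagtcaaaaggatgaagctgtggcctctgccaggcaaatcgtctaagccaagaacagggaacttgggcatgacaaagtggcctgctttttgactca
The H2-Aa match began 49 bases before the start, the H2-Eb1 matches began 60 and 35 bases before it, and the Cd207 window held none. Among all 32851 promoters of the same length, 10.1% held the motif on either strand. Matches also stood before H2-DMb1, H2-DMb2, H2-Oa and H2-Ob, and neither of the 2 H2-DMa windows held one. A match describes letters only and was not tested as a binding site.

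The chosen cells made up 1.60% of kept cells in NP (104 of 6491 cells, exact 95% binomial interval 1.31% to 1.94%). At dpc16 the share was 1.46% (188 of 12853, 1.26% to 1.69%). At dpp6 it was 2.45% (221 of 9031, 2.14% to 2.79%), and at dpp40 1.19% (102 of 8552, 0.974% to 1.45%). The dpp6 share was highest, and its interval did not overlap those of the other 3 libraries, which overlapped one another. Such intervals cover counting error only, not the spread between mice. T cells, taken as cells with at least 2 Cd3 UMIs and under 20 class II UMIs, held between 0.947% (dpp40) and 1.18% (dpp6) of kept cells, with intervals that overlapped.

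The threshold fell in a sparse range of values. A total of 34964 kept cells had fewer than 3 class II UMIs and 1335 had 3 to 19. Just outside the rule lay 33 cells with 15 to 19 UMIs, of which 5 had a Cd207 UMI, and just inside lay 17 cells with 20 to 24, of which 3 had one. The chosen cells reached well beyond it, with a median of 178.5 class II UMIs in NP, 147.5 at dpc16, 244 at dpp6 and 198.5 at dpp40, and 460 of the 615 cells had at least 100. Another 13 cells were rich in class II but had 2 or more Cd3 UMIs and were left out.

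Cd207 (mm10 chromosome 6, 83671215 to 83677857) was detected in most of the chosen cells. After each cell was thinned at random to 2000 UMIs, which puts libraries of unequal depth on 1 footing, 67.3% of the chosen cells in NP held a Cd207 UMI. The share was 70.7% at dpc16, 68.3% at dpp6 and 69.6% at dpp40. Before thinning the shares were 81.7%, 92.0%, 84.6% and 86.3%, at median depths of 4604, 5377.5, 4401 and 6317.5 UMIs per cell. The 4 thinned shares lay close together, and in all other kept cells, mostly keratinocytes, they were 0.506%, 0.902%, 0.517% and 0.430%. Before thinning 8 of 395 T cells held a Cd207 UMI, at a median depth of 5855 UMIs.

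The label holds for most of the cells but not for all of them. Many chosen cells also carried keratinocyte RNA, measured as the share of a cell's UMIs from 18 keratinocyte genes such as Krt5, Krt14 and Krt1. For this reason 3 classes were set after these values had been seen. Low-keratinocyte cells (216) had under 1% keratinocyte UMIs. Mixed cells (333) had at least 1%, together with 3 or more UMIs of the white blood cell genes Ptprc, Fcer1g, Tyrobp, Aif1 and Csf1r. The remaining 66 had at least 1% and fewer than 3 such UMIs. The classes are ranges rather than types, and 19 low-keratinocyte and 12 mixed cells lay between 0.7% and 1.4%. A Cd207 UMI was present in 209 of the 216 low-keratinocyte cells, in 299 of the 333 mixed cells and in 25 of the 66 others.

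**Figure D1:**
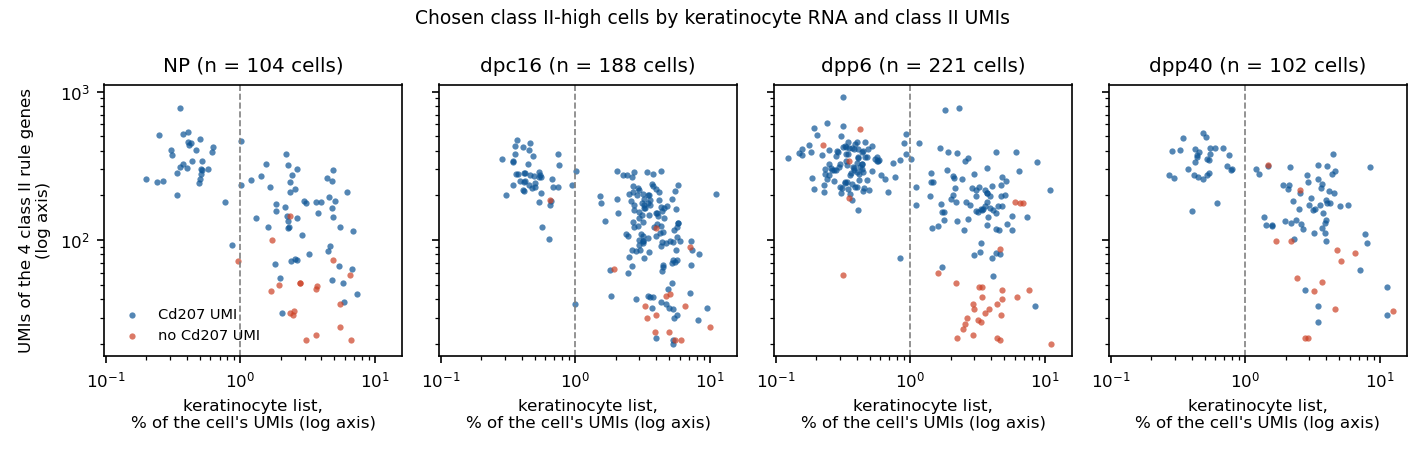
Each point is 1 chosen cell, with the share of its UMIs from the 18 keratinocyte genes on the horizontal log axis, the UMIs of the 4 class II genes on the vertical log axis, and 1 panel per state. Blue cells held a Cd207 UMI and red cells none, and the dashed line marks 1%; low-keratinocyte cells, left of it, reach high class II values (median 309.5 UMIs), mixed cells have a median of 156 and the remaining 66 cells a median of 36.5.

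Depth separated the classes as well. Low-keratinocyte cells had a median of 3366 UMIs in all, mixed cells 7376 and the remaining cells 5897. The keratinocyte share had a median of 0.413% in low-keratinocyte cells and 3.46% in mixed cells, against 3.83% in T cells. In other kept cells, mostly keratinocytes, the median was 4.22% in NP, 4.87% at dpc16, 4.41% at dpp6 and 4.25% at dpp40. Mixed cells were thus deeper than low-keratinocyte cells. Their keratinocyte share was close to that of T cells and nearer to that of other kept cells than to that of low-keratinocyte cells. No doublet caller was run, and the part of droplets with more than 1 cell, or of free keratinocyte RNA, in the mixed class was not tested.

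The 66 cells with few white blood cell UMIs differed from the low-keratinocyte cells in genes of class II loading. H2-DMa, a chain of the peptide exchange factor, was at 131 to 200 CPM over the 4 states (UMIs of the gene per 1000000 summed UMIs of the class in a library), and at 2764 to 3329 in low-keratinocyte cells. Ciita, the master regulator of class II genes, had 0 UMIs in all 66 cells, where low-keratinocyte cells held 3, 4, 17 and 5. At dpp6 this class included 5 cells with Cxcl9 (17 UMIs) and 4 with Cxcl10 (20 UMIs), both interferon-induced chemokines. Few white blood cell UMIs defined this class and so are no evidence about it, and its cells are not called Langerhans cells below.

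The class make-up differed most at dpp6. Low-keratinocyte cells were 0.493% of kept cells in NP (32 cells, 0.337% to 0.695%), 0.358% at dpc16 (46 cells, 0.262% to 0.477%), 1.20% at dpp6 (108 cells, 0.982% to 1.44%) and 0.351% at dpp40 (30 cells, 0.237% to 0.500%). The dpp6 interval lay above the other 3, which overlapped. Mixed cells were 0.847%, 0.957%, 0.997% and 0.760%, with intervals that overlapped throughout, and the other 66 cells were 0.262%, 0.148%, 0.255% and 0.0819%. The higher share of chosen cells at dpp6 thus lay in the low-keratinocyte class. In the same library T cells under 1% keratinocyte UMIs were also most common, at 20.6% of T cells against 4.62% in NP, 0.704% at dpc16 and 4.94% at dpp40. Of all other kept cells, 0.728%, 0.160%, 2.10% and 0.920% lay under 1%. The part of library-wide keratinocyte RNA in the dpp6 share was not tested.

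**Figure D2:**
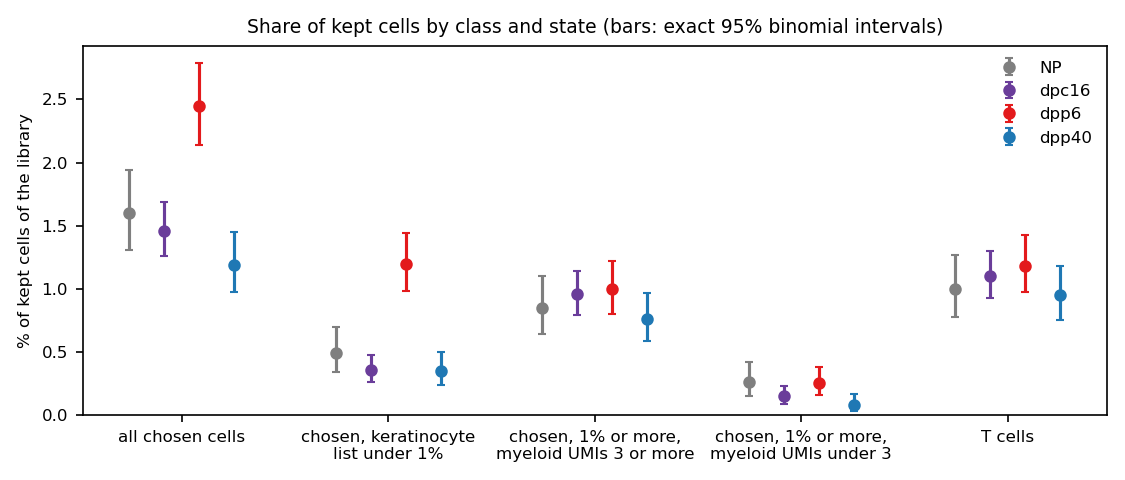
Points give the percentage of each library's kept cells in each class, with exact 95% binomial intervals as bars and colours for the 4 states. The low-keratinocyte share at dpp6 (1.20%) stands above the other 3 states (0.351% to 0.493%), while the mixed shares lie between 0.760% and 0.997%.

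Levels below are CPM as defined above, with exact 95% Poisson intervals for counting error. They are given for low-keratinocyte cells unless stated, because their RNA holds the least from keratinocytes. These sums rest on 115472 UMIs in NP, 161406 at dpc16, 382650 at dpp6 and 123727 at dpp40. Fewer expressing cells and less RNA per cell cannot be told apart in such sums. A gene was called higher or lower than NP where the level differed at least 2-fold, the intervals did not overlap, and the pair of libraries held at least 20 UMIs. That is a rule of size and not a test, and all 3 comparisons share the NP library.

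Cd207, Epcam and Mfge8, which mark Langerhans cells, stayed within 2-fold of NP in every state. Cd207 was at 2269 CPM in NP, 2955 at dpc16, 2041 at dpp6 and 2586 at dpp40. Epcam, a cell adhesion molecule, was at 788, 979, 794 and 849. Mfge8, a bridge protein for uptake of dying cells, was at 1490 (1275 to 1730), 2175 (1953 to 2414), 938 (844 to 1040) and 1204 (1019 to 1414). Of these genes Mfge8 varied most. It was highest at dpc16 and lowest at dpp6, and neither state reached 2-fold against NP (1.46-fold and 0.630-fold). The Mfge8 intervals at dpc16 and dpp6 overlapped neither each other nor that of NP. In T cells Mfge8 lay between 3.80 and 8.72.

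Ltc4s, the enzyme that makes leukotriene C4, was at 1342, 1221, 1450 and 1164 CPM in the order NP, dpc16, dpp6, dpp40. Csf1r, the receptor on which Langerhans cells depend, was at 632, 477, 463 and 533. H2-M2, a class I-like gene, was at 2650, 2119, 2812 and 2643. No state stood out by 2-fold in these genes. The signalling adaptors Fcer1g (2269, 1945, 2480 and 1891) and Tyrobp (2070, 1859, 2535 and 2174) likewise kept within a 2-fold range.

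Of the 18 genes on the Langerhans identity list 13 could be tested in low-keratinocyte cells. None was called at dpc16 (median log2 fold -0.16) or dpp40 (0.07), and at dpp6 (0.01) only Lyz2, the lysozyme of macrophages and monocytes, was called. The medians over all tested genes were 0.07, 0.01 and 0.01 for dpc16, dpp6 and dpp40. Of the 20 lineage transcription factors, 10 to 13 could be tested in low-keratinocyte cells and none was called. Over all chosen cells Nr4a3 was called higher at dpp6 (18.2 in NP and 45.0), and no other of the 17 tested was called in any state. Runx3, needed for Langerhans cell development, was at 260, 173, 212 and 170 CPM, Spi1 at 476, 378, 520 and 453, and Id2 at 364, 502, 329 and 339.

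**Figure D3:**
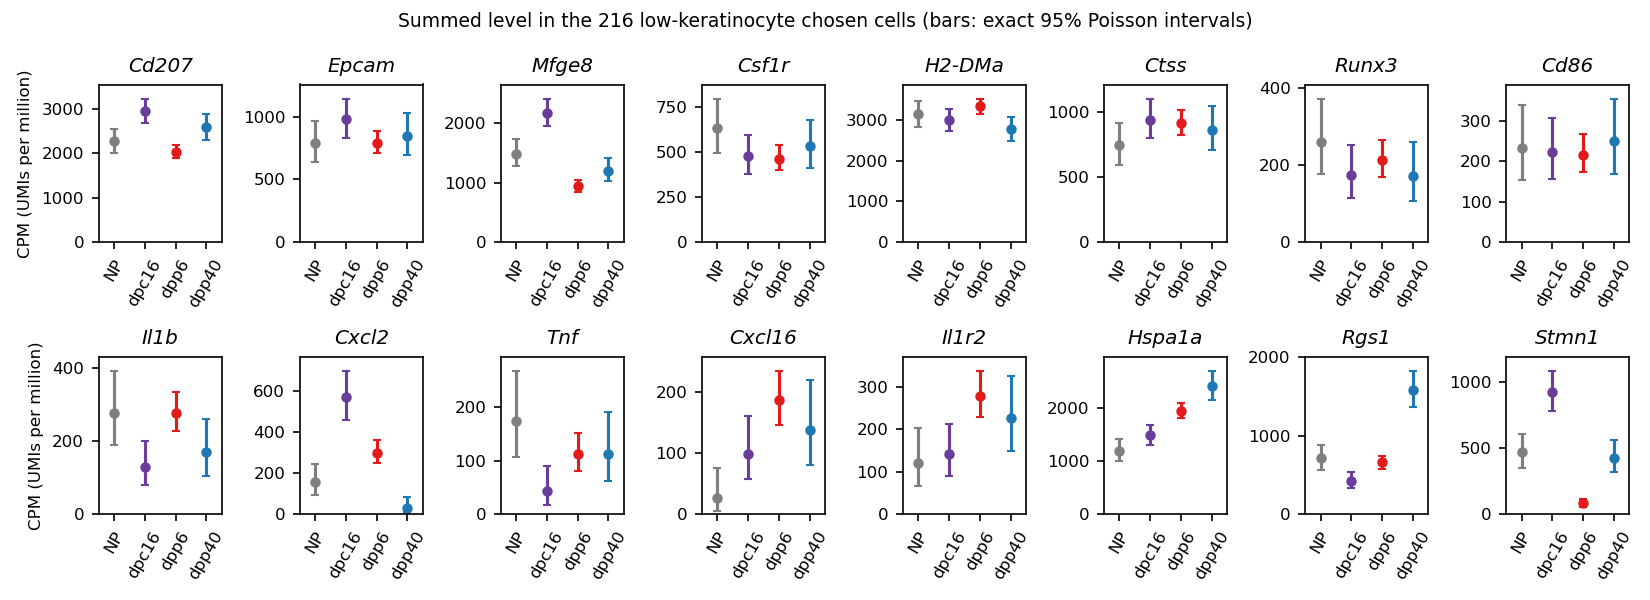
Each panel gives 1 gene's summed level in the low-keratinocyte cells in CPM, by state, with exact 95% Poisson intervals as bars and the vertical axis starting at 0. Cd207 stays between 2041 and 2955, Mfge8 ranges from 938 to 2175, and the genes called in a comparison show separate bars.

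Class II genes chose the cells, and their levels are a description. Cd74 was at 41569, 30544, 39548 and 35150 CPM in NP, dpc16, dpp6 and dpp40. H2-Aa (mm10 chromosome 17, 34282744 to 34287823), whose promoter is printed above, was at 16073, 14473, 17611 and 15761. H2-Eb1, with the paired motif, was at 14402, 11951, 15526 and 13255. The dpc16 library was lowest for all 3 genes and the spread stayed under 2-fold.

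Partners of class II outside the rule were measured too. H2-DMa was at 3135, 2986, 3329 and 2764 CPM and H2-DMb1 at 1619, 1598, 1722 and 1406. Ctss was at 745, 942, 920 and 865. None was called in any state. At dpp6 all 11 tested partners had folds above 1 (median log2 0.30, where all tested genes had 0.01), and 0 of 11 were called. B2m, the light chain of class I, was at 3031, 3147, 3366 and 3580, and no gene of the class I list was called.

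The choice of cells changed this picture at dpp6. Over all 221 chosen cells against the 104 of NP, the class II partners had a median log2 fold of 0.58 and Lgmn, a lysosomal protease, was called higher. The identity list had 0.52, with Lyz2 and Ctsz called among 16 tested genes. In low-keratinocyte cells the same 2 lists had medians of 0.30 and 0.01. The keratinocyte list went the other way, with -0.35 over all chosen cells, whose summed keratinocyte level was 36324 CPM in NP, 42195 at dpc16, 30818 at dpp6 and 38593 at dpp40. Among low-keratinocyte cells it was 4521, 5229, 3946 and 4954. The library with the least keratinocyte RNA among its chosen cells thus had the higher medians, and the part of that RNA in them was not tested.

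**Figure D4:**
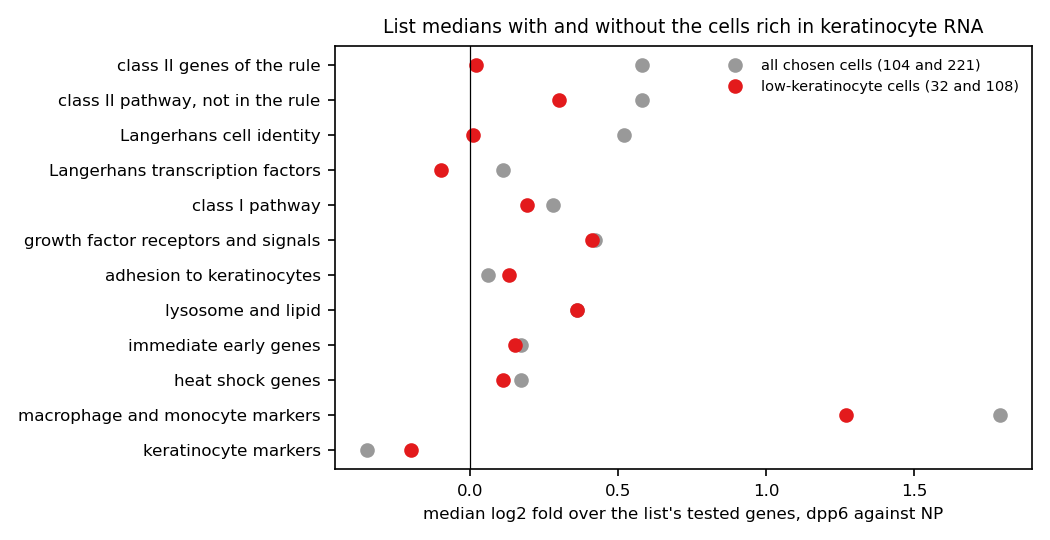
Points give the median log2 fold over the tested genes of each list, dpp6 against NP, in all chosen cells and in low-keratinocyte cells. The identity list sits at 0.52 in all chosen cells and at 0.01 in low-keratinocyte cells, while the macrophage list is above 1 in both (1.79 and 1.27).

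The emigration receptor Ccr7 was rarely detected. A Ccr7 UMI was found in 0 of 104 chosen cells in NP, 1 of 188 at dpc16, 1 of 221 at dpp6 and 0 of 102 at dpp40, after thinning to 2000 UMIs. A count of 0 allows shares of cells with a UMI of up to 2.88% in NP and 2.94% at dpp40, taking 3 counts of the total (exact upper bounds 3.48% and 3.55%). No difference between states was detectable at this depth. Other kept cells held it in at most 0.0119% of cells.

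Ccl22, a chemokine of mature dendritic cells (mm10 chromosome 8, 94745590 to 94751699), was called higher at dpc16 and dpp6 in low-keratinocyte cells through single cells. At dpc16 all 32 UMIs lay in 1 cell, which also had 6 Ccr7 and 3 Fscn1 UMIs and no Cd207 UMI. At dpp6 all 38 UMIs lay in 1 cell with 17 Ccr7, 5 Fscn1 and 19 Cd207 UMIs. At dpp40 all 10 UMIs lay in 1 cell with 19 Fscn1 and 1 Cd207 UMI. The NP cells had none, which makes the folds at least 7.63 and 3.82 against a floor of 3 counts. Each such cell carries several genes of the maturation list at once, and the calls for Ccl22 rest on them. Cd83, a surface molecule of mature dendritic cells, was at 329, 167, 384 and 445 CPM, and Cd86, a costimulator of T cells, at 234, 223, 217 and 251. Neither was called. Of the 20 maturation and migration genes, 4 could be tested at dpc16, 5 at dpp6 and 4 at dpp40. Besides Ccl22 the one call was Tmem123, higher at dpp40 (52.0, 68.2, 94.1 and 251), where 1 cell held 15 of 31 UMIs.

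Cell cycle genes set dpc16 and dpp6 apart among low-keratinocyte cells. A cell was counted when it held a UMI of Mki67, Top2a, Cdk1, Birc5 or Ccnb2 after thinning to 2000 UMIs. In NP these were 3 of 32 cells (9.38%, 1.98% to 25.0%), and at dpc16 16 of 46 (34.8%, exact 95% binomial interval 21.4% to 50.2%). At dpp6 there were 5 of 108 (4.63%, 1.52% to 10.5%) and at dpp40 4 of 30 (13.3%, 3.76% to 30.7%). The dpc16 interval lay above that of dpp6 and overlapped those of NP and dpp40. Without thinning the shares were 15.6%, 41.3%, 4.63% and 13.3%, again highest at dpc16 and lowest at dpp6. With 2 or more such UMIs the counts were 1, 10, 1 and 1 cells. Median depths were 3393, 3223, 3203.5 and 3786 UMIs per cell.

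T cells, mixed cells and other kept cells of the same libraries were not highest at dpc16. Mixed cells and, by a small margin, other kept cells were also lowest at dpp6. T cells with a cycling UMI made up 12.3%, 10.6%, 13.1% and 8.64% at the same depth, and all other kept cells 9.78%, 7.81%, 7.79% and 9.42%. In mixed cells the share was 14.5%, 9.76%, 6.67% and 16.9%, highest at dpp40 and lowest at dpp6. Over all chosen cells it was 10.6%, 14.4%, 4.07% and 8.82%. The dpc16 value therefore rests on the 46 low-keratinocyte cells of 1 library.

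**Figure D5:**
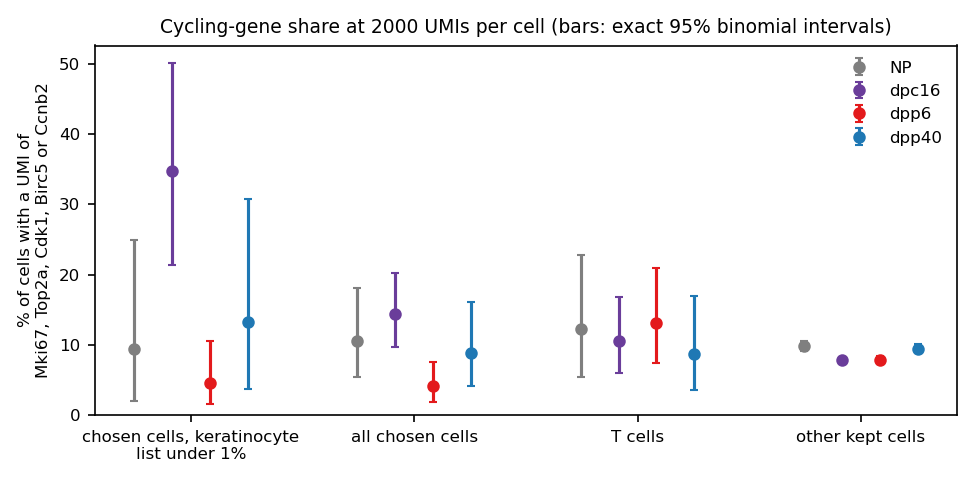
Points give the percentage of cells with a UMI of Mki67, Top2a, Cdk1, Birc5 or Ccnb2 at 2000 UMIs per cell, by class and state, with exact 95% binomial intervals as bars. Among low-keratinocyte cells dpc16 stands at 34.8% and dpp6 at 4.63%, while other kept cells lie between 7.79% and 9.78% in all states.

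Single genes show how these counts are spread. Birc5, a regulator of chromosome segregation, had 10 UMIs in 1 cell in NP, 30 UMIs in 13 cells at dpc16, 0 at dpp6 and 8 UMIs in 1 cell at dpp40. Mki67, the Ki-67 antigen of dividing cells, had 1, 9, 1 and 0 UMIs, and Top2a, which untangles DNA, had 7, 25, 10 and 5. At dpc16 the UMIs were therefore shared by many cells. Dut, which clears dUTP for DNA synthesis, was called higher at dpc16 (4 UMIs in NP and 30 UMIs in 17 cells at dpc16, 5.37-fold). All 8 tested genes of the G2 and mitosis list had folds above 1 at dpc16 (median log2 0.96), and 0 were called.

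At dpp6 the calls were lower for Stmn1, a microtubule regulator of dividing cells, and Hmgb2, a chromatin protein. Stmn1 was at 468, 923, 81.0 and 428 CPM and Hmgb2 at 450, 694, 183 and 323. Both were highest at dpc16 and lowest at dpp6. A single NP cell held 51 of the 54 Stmn1 UMIs of that library, and it also held 10 Birc5 UMIs. Neither call at dpp6 was kept when the highest cell of each gene was left out. The cell cycle partners Cks1b (130, 155, 23.5 and 80.8) and Cks2 (165, 217, 44.4 and 72.7) were also lowest at dpp6 and lost their call without the highest cell.

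Calls across the transcriptome were few. In low-keratinocyte cells at dpc16, 27 of 1724 tested genes (1.57%) were called higher and 11 (0.638%) lower than in NP. At dpp6 27 of 2724 (0.991%) were higher and 23 (0.844%) lower, and at dpp40 13 of 1445 (0.900%) were higher and 6 (0.415%) lower. Single cells carried many of these: without each gene's highest cell, 15 of 27 and 6 of 11 calls remained at dpc16, 15 of 27 and 12 of 23 at dpp6, and 5 of 13 and 3 of 6 at dpp40.

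At dpc16, of 6 tested cytokines and chemokines 2 were called higher (Ccl22, from 1 cell, and Cxcl2) and 1 lower (Tnf), with a median log2 fold of -0.01. Cxcl2, a chemokine that attracts neutrophils, was at 156, 570, 301 and 32.3 CPM, higher at dpc16 (3.66-fold) and lower at dpp40 (0.207-fold) than in NP. Its 92 UMIs at dpc16 came from 8 cells, 1 of which held 44, and in NP 1 cell held 16 of 18. Tnf, the cytokine tumour necrosis factor, was at 173, 43.4, 112 and 113 and was called lower at dpc16 (0.250-fold). The NP level rested on 20 UMIs in 6 cells, and the call was lost without the highest one. Ccrl2, a chemerin-binding receptor (251, 68.2, 214 and 194), and Phlda1 (407, 136, 186 and 323) were also lower at dpc16, and both remained without their highest cell. Phlda1 was called lower at dpp6 as well, and that call also remained.

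Il1b, the cytokine interleukin 1 beta, was at 277 CPM in NP, 130 at dpc16, 277 at dpp6 and 170 at dpp40 in low-keratinocyte cells, with no call. Over all chosen cells it was at 92.4, 28.7, 105 and 68.6 and was called lower at dpc16 (0.311-fold). The dpc16 library was lowest in both. Il18, made constitutively in the epidermis, was at 208, 211, 193 and 186 in low-keratinocyte cells.

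Some dpc16 calls held in other cells or rested on few. Fabp5, Scd1, Mgst1, Cers4 and Psph came mostly from 1 cell, which held 37 Scd1 and 53 Mgst1 UMIs. Of its 7985 UMIs 8 were Cd207, 14 Cd74 and 1 Fcer1g, with no Epcam UMI. Its class II sum was 37, where low-keratinocyte cells had a median of 309.5, so the Langerhans label is in doubt for this cell. The mitochondrial gene mt-Nd3 was lower at dpc16 in chosen cells and also in other kept cells, at 244 CPM in NP and 96.9 at dpc16. Krt1, a keratin of differentiating keratinocytes, was called higher in low-keratinocyte cells at dpc16, from 2 UMIs in NP to 22. Med21, a subunit of the Mediator complex, was called higher in all 3 later states (34.6, 192, 144 and 154), where other kept cells ranged from 52.8 to 62.2. The NP level of Med21 rested on 4 UMIs, and its dpp40 call was lost without its highest cell.

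At dpp6 the called genes included Cxcl16, a membrane-bound chemokine and scavenger receptor. It was at 26.0 (5.36 to 75.9), 99.1 (56.7 to 161), 186 (145 to 234) and 137 (80.0 to 220) CPM. The dpp6 fold was 7.14, with a counting interval of 2.35 to 35.5, since NP held 3 UMIs, and Cxcl16 was called at dpp40 as well. Of these calls only that at dpp6 remained without the highest cell of Cxcl16. Its dpp6 UMIs lay in 23 cells. In T cells Cxcl16 ranged from 48.0 to 82.7 and in other kept cells from 83.7 to 102, so the gene was also present outside the chosen cells. Over all chosen cells Cxcl16 was at 80.7, 83.0, 142 and 76.7, highest at dpp6 and without a call.

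Il1r2, the decoy receptor of interleukin 1, was at 121, 142, 280 and 226 CPM, 2.31-fold higher at dpp6. Its 107 UMIs at dpp6 compare with 14 in NP. Psap, the precursor of lysosomal lipid activators, was at 329, 254, 669 and 331 and was called at dpp6 (2.03-fold), where 1 cell held 44 of 256 UMIs. Il1r2 remained a call without its highest cell and Psap did not. Sft2d2, a vesicle transport protein, was called at dpp6 and dpp40 (26.0, 55.8, 107 and 154), and only the dpp6 call remained without its highest cell.

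Macrophage genes marked a few cells of the dpp6 library. C1qa, a complement chain, was at 121, 68.2, 303 and 113 CPM and Lyz2 at 147, 112, 470 and 170, and both were called at dpp6. Of the macrophage and monocyte list 4 of 6 tested genes were called higher at dpp6 (C1qa, C1qb, C1qc and Plac8), with a median log2 fold of 1.27. The list summed to 355 CPM in NP, 291 at dpc16, 1019 at dpp6 and 469 at dpp40. At dpc16 and at dpp40 only 2 genes of that list held enough UMIs to be tested, and neither was called. The lack of calls there is therefore partly set by the lower UMI sums of those libraries.

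Much of those dpp6 values came from cells without a Cd207 UMI. The 103 low-keratinocyte dpp6 cells with a Cd207 UMI held 49 C1qa and 51 Lyz2 UMIs, but only 1 C1qb and 3 C1qc UMIs. In all, 7 of the 216 low-keratinocyte cells had no Cd207 UMI: 1 in NP, 1 at dpc16, 5 at dpp6 and 0 at dpp40. One dpp6 cell had 38 C1qa, 33 C1qb, 21 C1qc, 41 Lyz2 and 12 Ms4a7 UMIs. A second had 88 Lyz2, 28 C1qa, 31 C1qb, 18 C1qc, 62 Retnla and 27 Ccl6 UMIs, and another had 23 Plac8, 23 Cd209a and 19 Srgn UMIs. These 3 cells carry genes known from macrophages, monocytes and type 2 dendritic cells, so their markers go against the Langerhans label.

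With a Cd207 UMI required, the picture at dpp6 was different. C1qa in low-keratinocyte cells was then at 125, 69.3, 138 and 113 CPM, and Lyz2 at 151, 113, 144 and 170. C1qb had 0, 1, 1 and 0 UMIs. Cxcl16 was at 26.7, 63.0, 164 and 137, Il1r2 at 125, 145, 302 and 226, and Psap at 311, 246, 457 and 331. The macrophage genes then no longer stood out at dpp6, while Cxcl16 and Il1r2 kept their higher dpp6 levels. Calls in these Cd207-positive cells numbered 26 higher and 12 lower at dpc16, 13 and 25 at dpp6, and 15 and 8 at dpp40. Of those, 24 and 10, 11 and 19, and 12 and 6 were also called without the requirement.

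At dpp40, 2 of 8 tested heat shock genes were called higher in low-keratinocyte cells (5 of 8 above 1-fold, median log2 0.48), as was 1 of 15 immediate early genes (median 0.18). Over all tested genes 0.900% were called higher. Hspa1a, an inducible heat shock chaperone, was at 1195 (1004 to 1412), 1487 (1305 to 1687), 1952 (1815 to 2097) and 2409 (2143 to 2698) CPM, 2.02-fold higher at dpp40. Its co-chaperone Dnajb1 (191, 341, 267 and 412) was 2.16-fold higher, a call that was lost without its highest cell. The immediate early gene Jun (372, 322, 538 and 824) was 2.21-fold higher. Hspa1a was lowest in NP and highest at dpp40, and other kept cells had the same order, at 240, 292, 425 and 606. Jun was also highest at dpp40 in other kept cells, at 592, 784, 848 and 924. Skin was dissociated at 37 °C, and the part of dissociation in these levels was not tested.

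Rgs1, a brake on G protein signalling of chemokine receptors, was at 710, 427, 659 and 1584 CPM, 2.23-fold higher at dpp40. In other kept cells it was under 5 in every state, at 4.52, 2.91, 3.53 and 3.99, and in T cells it was at 278, 225, 425 and 304. Neither was highest at dpp40. Over all chosen cells Rgs1 was at 305, 162, 272 and 327, with no call. Pim1, a survival kinase, had 3 UMIs in NP and 21 at dpp40 (6.53-fold, counting interval 1.95 to 34.2). Hsp90b1, a chaperone of the endoplasmic reticulum (312, 192, 253 and 88.9), and Itm2c (286, 180, 246 and 97.0) were lower at dpp40. Rgs1, Hspa1a, Jun, Hsp90b1 and Itm2c remained calls without their highest cell.

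Over all 615 chosen cells more genes could be tested. At dpc16 70 of 7520 tested genes (0.931%) were higher and 58 (0.771%) lower. At dpp6 107 of 7713 (1.39%) were higher and 103 (1.34%) lower, and at dpp40 39 of 6784 (0.575%) were higher and 40 (0.590%) lower. Of the genes called higher, 41 of 70, 93 of 107 and 27 of 39 were at least as high in the chosen cells as in other kept cells. Among the largest dpc16 folds, Tsr1, BC100530, Rbp2 and Stfa1 were higher over all chosen cells but had 0 UMIs in low-keratinocyte cells of NP and dpc16. Zmynd15 was higher at dpp6 and dpp40, from 1 UMI in NP to 39 and 19, and the toll-like receptor Tlr2 was higher at dpp6 (1 and 25 UMIs).

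Some of these calls followed the whole library. Skint3 (mm10 chromosome 4, 112232245 to 112300468), a gene of the keratinocyte Skint family that is linked to skin gamma delta T cells, had 22 UMIs in NP members and 0 in those of the other 3 states. Other kept cells held 933 Skint3 UMIs in NP and 0 elsewhere. Hist1h2ap, a histone, was at 87.2, 29.5, 1.45 and 23.3 CPM in chosen cells and at 60.2, 27.9, 4.45 and 25.6 in other kept cells. Thy1 was called higher at dpc16 (6.51 in NP and 64.4), and in other kept cells it was at 18.1, 95.2, 14.5 and 16.2. Low-keratinocyte cells had 0, 2, 1 and 0 Thy1 UMIs.

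Fkbp5, a gene that glucocorticoids and progesterone induce, was at 16.9, 63.6, 23.3 and 12.8 CPM over all chosen cells, 3.76-fold higher at dpc16. T cells (28.0, 61.8, 19.9 and 15.2) and other kept cells (22.2, 58.1, 18.1 and 13.4) were also highest at dpc16. In low-keratinocyte cells Fkbp5 was at 60.6 in NP and 80.5 at dpc16, without a call. The metallothionein Mt1, also glucocorticoid-inducible, was at 1732, 789, 669 and 1640 in chosen cells and at 1984, 1024, 1058 and 2265 in other kept cells. For both genes the direction at dpc16 was thus the same in chosen and in other kept cells.

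In low-keratinocyte cells, receptors and signals for growth factors that Langerhans cells and other myeloid cells respond to were mostly below the count needed for a call. Of 15 such genes 2 could be tested there at dpc16, 5 at dpp6 and 2 at dpp40. Over all chosen cells 10 could be tested in each comparison. Csf2ra and Csf2rb, chains of the receptor for the cytokine GM-CSF, were called higher at dpp6 over all chosen cells. Csf2ra was at 19.5, 21.7, 45.0 and 25.6 CPM and Csf2rb at 16.9, 27.9, 43.6 and 31.4, in the order NP, dpc16, dpp6, dpp40. In low-keratinocyte cells Csf2ra was at 60.6, 55.8, 115 and 48.5 and Csf2rb at 43.3, 62.0, 105 and 80.8, again highest at dpp6 and without a call. Il34, the keratinocyte-made ligand of Csf1r, had 0, 1, 5 and 0 UMIs in low-keratinocyte cells.

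Receptors for the hormones of pregnancy were near the floor. The progesterone receptor Pgr had 0 UMIs in low-keratinocyte cells of every state, the oestrogen receptor Esr1 had 0, 0, 1 and 0, and the prolactin receptor Prlr had 0, 3, 3 and 1. Nr3c1, the glucocorticoid receptor, was at 86.6, 86.7, 31.4 and 40.4 CPM, and was not called. Over all chosen cells Vdr, the vitamin D receptor, was called lower at dpc16 (72.9 and 35.7) and Igf1r lower at dpp6 (46.9 and 19.6). Other kept cells held Vdr at 74.0 in NP and 39.4 at dpc16. Low-keratinocyte cells held at most 9 UMIs of Vdr and 2 of Igf1r in any library.

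Beside the keratinocyte and macrophage lists above, markers of other cell types were summed over all chosen cells. The T cell list came to 128, 189, 109 and 135 CPM in the order NP, dpc16, dpp6, dpp40. The type 2 dendritic cell list came to 224, 306, 357 and 280, and Mgl2 (5.21, 7.76, 32.7 and 11.6) and Ear2 (0 UMIs in NP and 25 at dpp6) were called higher at dpp6. Of the B and plasma cell list, Ighm, the heavy chain of IgM, was called higher at dpp6 (27.3, 24.8, 66.1 and 37.2). The 2 dpp6 cells rich in C1qa described above held 16 and 7 of the 25 Ear2 UMIs, and 12 and 9 Mgl2 UMIs. In low-keratinocyte cells all 5 tested genes of the type 2 dendritic cell list had folds above 1 at dpp6 (median log2 1.21). Ear2 and Il1r2, which is also on that list, were called higher there. At dpc16 and at dpp40 2 genes of the list could be tested in these cells and 0 were called. The part of other cell types in the remaining dpp6 values was not tested. The mast cell, basophil and neutrophil list was at 0 in every library. The melanocyte and Merkel list and the fibroblast and endothelial list had no member with enough UMIs to be tested. The libraries shared 75 to 154 barcodes per pair, and no chosen cell shared its barcode with another library's chosen cell.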

How the data were processed

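RNA was measured in single cells of 4 libraries, 1 per state, with 40450455 to 74804602 UMIs each. The deposited matrices hold raw UMI counts for 28693 genes, and the submitters' processing notes name Cell Ranger 2.2.0 and mm10. How barcodes were filtered to cells before deposit is not given in the sources used here. The members and gene lists were chosen with earlier results of these data known.

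Barcodes were kept from 200 detected genes upwards and up to 10% mitochondrial UMIs. UMI counts of the chosen cells were summed per library, scaled to CPM (per 1000000 UMIs) and given exact 95% Poisson intervals. Shares have exact 95% Clopper-Pearson intervals. A gene was called at a 2-fold difference with intervals apart and at least 20 UMIs in both libraries together. A library with 0 was set to 3 counts, so its fold is a lower bound. Thinning to 2000 UMIs used seed 1. With 1 library per state no test was made, and no doublet caller was run. The call rule was run on simulated Poisson counts that held no spread between cells or mice. That run therefore says nothing about calls carried by single cells. Named genes were, per comparison, the 10 largest folds each way among called genes whose level in the chosen cells was at least that of other kept cells, the leading members of each list, markers, and cells or genes named after their values were seen. Classes by keratinocyte share were set after seeing the data. Promoters came from RefSeq (GRCm38.p6), and positions from GENCODE for mm10. Python 3.11.15, scipy 1.17.1, R 4.3.3 and edgeR 4.0.16 (scaling only) were used. Not every gene that the rule covers is reported here.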

Additional observations from a re-analysis of the deposited data

How the results depend on the processing

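No paired analysis was possible because each state has 1 single-cell library, and for the same reason no library could be left out. Under the alternative settings, 145 values of shares and counts of calls stayed close to those reported and 63 moved. Of single genes, 384 values kept their call, 284 lost it and 2 changed direction, all by the size rule. Both reversals came with a Cd207 UMI required: C1qc at dpp6 had a log2 fold of -0.40 and Stfa3 at dpp40 -1.02. The cause of the changes below was not tested except where fewer cells or UMIs enter by construction.

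The share of chosen cells, as % of kept cells, moved with the rule. With at least 10 class II UMIs it was 2.88 at dpp6 and 1.53 at dpp40. With class II at 1% of a cell's UMIs it was 1.22, 1.07, 2.10 and 0.971 in the order NP, dpc16, dpp6, dpp40. With Cd207 required it was 1.31 in NP and 2.07 at dpp6. Without cells over 2% keratin UMIs it was 0.934 at dpc16, 2.10 at dpp6 and 0.912 at dpp40. In low-keratinocyte cells alone, chosen after seeing the data, it was 0.493, 0.358, 1.20 and 0.351. In each of these settings dpp6 had the highest of the shares given.

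The share with a Cd207 UMI at 2000 UMIs, in %, was 59.2 at dpp6 and 53.4 at dpp40 with at least 10 class II UMIs, and 84.8, 85.4 and 80.0 in NP, dpc16 and dpp6 with class II at 1%. It was 82.5 at dpc16 and 77.4 at dpp6 without cells over 2% keratin, and 96.9, 95.7, 90.7 and 96.7 in low-keratinocyte cells. It was 76.3 at dpp6 with 3 myeloid UMIs required, an alternative also chosen after seeing the data. Thinned to 1000 UMIs it was 47.1, 59.0, 52.0 and 51.0, and without thinning 81.7, 92.0, 84.6 and 86.3. The cycling share was 7.69 at dpp6 with at least 10 class II UMIs. At dpc16 it was 20.4 with class II at 1%, 20.8 without cells over 2% keratin and 34.8 in low-keratinocyte cells. Without thinning it was 22.1, 22.9, 13.6 and 22.5. The Ccr7 share at dpc16 was 0 with Cd207 required.

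Counts of calls also moved. In low-keratinocyte cells they were 27 higher and 11 lower at dpc16, 27 and 23 at dpp6, and 13 and 6 at dpp40. Thinned to 2000 UMIs they were 37 and 30, 35 and 32, and 14 and 13. With class II at 1% they were 54 and 50 at dpp6. Without cells over 2% keratin 70 were lower at dpp40, against 40 in all chosen cells. With 3 myeloid UMIs 65 were higher at dpp6. With at least 50 UMIs tested 37, 61 and 19 were lower at dpc16, dpp6 and dpp40.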

Other observations

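Among the 216 low-keratinocyte cells, 108 of them from dpp6, macrophage-type cells were seen in 1 state. Mixed cells were not examined singly in this way. At dpp6 the cell with the most Lyz2 also held 16 Ear2, 14 Ccl9, 12 Mgl2 and 36 Cxcl2 UMIs, with no UMI of Cd207, Epcam or Mfge8. The cell with the most C1qb had 9 Mgl2, 7 Ear2 and 14 Srgn UMIs and none of those 3 Langerhans genes either. At dpp40 the cell with 116 of the 121 Crip1 UMIs of its class had 19 Fscn1 UMIs, 1 Cd207 UMI and no Mfge8 UMI.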
